A study of Mus musculus with 8 samples.

Results

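The genes described here are 10 inhibitors and feedback regulators of Wnt signalling, taken by symbol from the 22609 gene symbols counted in every library. They are the secreted inhibitors Notum, Dkk2, Dkk3, Sfrp1, Sfrp2 and Wif1, and the intracellular feedback regulators Axin2, Nkd1, Nkd2 and Dact1. The set is a fixed list of symbols, and it was chosen with earlier results of these data known. Total RNA came from immortalized mouse dental papilla cells, the mesenchyme inside the tooth germ that gives rise to odontoblasts. The iBmp2 fx/fx line, called floxed below, carries floxed alleles of Bmp2, a bone morphogenetic protein, and the iBmp2 ko/ko line, called knock-out below, carries the deletion. RNA was taken from both after 6, 24, 48 and 72 h of culture, with 1 library per genotype and time. Each genotype was thus 1 immortalized line, and culture times served as its replicates, so a difference between the lines cannot be told apart from a difference due to the deletion, and the spread given below includes any change with time.

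Wnt proteins bind Frizzled receptors and LRP co-receptors at the cell surface, which keeps beta-catenin from being degraded and lets it act with TCF/LEF factors on target genes. Cells restrain this signal at several steps. Secreted inhibitors remove or mask the ligand or block the co-receptor, and intracellular regulators act on Dishevelled or on the complex that degrades beta-catenin. Axin2, Nkd1 and Notum are themselves induced by beta-catenin in many tissues, and the balance of Wnt and BMP signals is a known part of tooth development.

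Reads assigned to genes numbered 25890110 to 32415665 per library (median 29985177). Values are counts scaled to that total (CPM), and 3 reads, taken as the limit of detection, correspond to 0.0925 to 0.116 CPM. Bmp2 itself (mm9 chromosome 2, 133377895 to 133388621) had 0 reads in all libraries but the floxed library of 24 h, which had 1, so the transcript could not check the genotype of the libraries. The 24 h library labelled knock-out stood apart: of the 287 genes that differed by genotype at the other times, 4 lay nearer in it to the knock-out mean than to the floxed mean, against 20 for the floxed 24 h library. The label of this library is therefore in doubt and could not be checked, so its values are given apart from those of the other knock-out libraries. Tests were therefore run on the 6 libraries of the times that the study's methods list (6, 48 and 72 h), and the 24 h values stand beside them. Of 12 markers of dental mesenchyme, 11 had more than 3 reads in every library and Lhx8 did not, and their sum did not overlap between genotypes, at 7099 to 9117 CPM in floxed, 9340 to 13626 CPM in knock-out and 8541 CPM in the 24 h library labelled knock-out. Reads of Vim, Col1a1 and Col1a2 make up most of this sum, and some other markers lay the opposite way. Dlx2 had 1559, 1330 and 1733 reads in floxed against 110, 116 and 446 in knock-out at 6, 48 and 72 h, Dlx1 236, 354 and 348 against 115, 109 and 189, and Msx1 218, 233 and 216 against 136, 107 and 105. Of 6 odontoblast markers, Dspp and Ibsp were at or under 3 reads in every library, and the summed level was 14.4 to 61.2 CPM in the floxed cells, 1.70 to 2.94 CPM in the knock-out cells of 6, 48 and 72 h and 14.99 CPM in the 24 h library labelled knock-out. Alpl, a phosphatase, made up most of this difference, with 403, 1641 and 1887 reads in floxed against 19, 17 and 35 in knock-out at 6, 48 and 72 h, while Phex had 30, 24 and 14 reads against 23, 27 and 33 and Bglap 9, 49 and 13 against 15, 8 and 6. For this sum the 24 h library labelled knock-out lay above the other knock-out libraries and close to the lowest floxed value. It had 345 Alpl reads, against 1053 in the floxed library of 24 h. Of 4 blood and macrophage markers, Ptprc and Emr1 were at or under 3 reads throughout, and the sum was 4.09 to 14.1 CPM in floxed, 2.63 to 3.40 CPM in knock-out and 6.24 CPM in that 24 h library. The sums of 8 epithelial, 4 endothelial and 4 Schwann and neural markers overlapped between genotypes and did not pass 3.66 CPM. The part of these markers in the results was not tested. In these bulk samples, fewer cells with a transcript and less of it per cell cannot be told apart.

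Of the 10 genes, 6 passed the filter on low counts, 3 secreted and 3 intracellular. Per kilobase of exon (RPKM), the highest mean in the floxed cells was that of Sfrp2 at 15.5 ± 11.96 (SD, n = 3), followed by Notum at 8.20 ± 3.55 and Dact1 at 4.89 ± 0.915. These 3 neighbours overlapped across libraries. Nkd2 at 0.245 ± 0.0594, Axin2 at 0.226 ± 0.0096 and Dkk3 at 0.176 ± 0.0460 RPKM followed at a far lower level, none of their values reaching those of Dact1. Nkd2 and Axin2 overlapped, and Axin2 and Dkk3 did not by a narrow margin. In the knock-out cells the order changed, with Dact1 first at 9.995 ± 4.23 RPKM, Sfrp2 at 2.94 ± 0.632, Notum at 0.304 ± 0.0836, Dkk3 at 0.154 ± 0.0617, Axin2 at 0.0970 ± 0.0223 and Nkd2 at 0.0320 ± 0.00295. Of these neighbours only Dkk3 and Axin2 overlapped across libraries. The plot of levels by culture time shows these 6 genes.

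**Figure D1:**
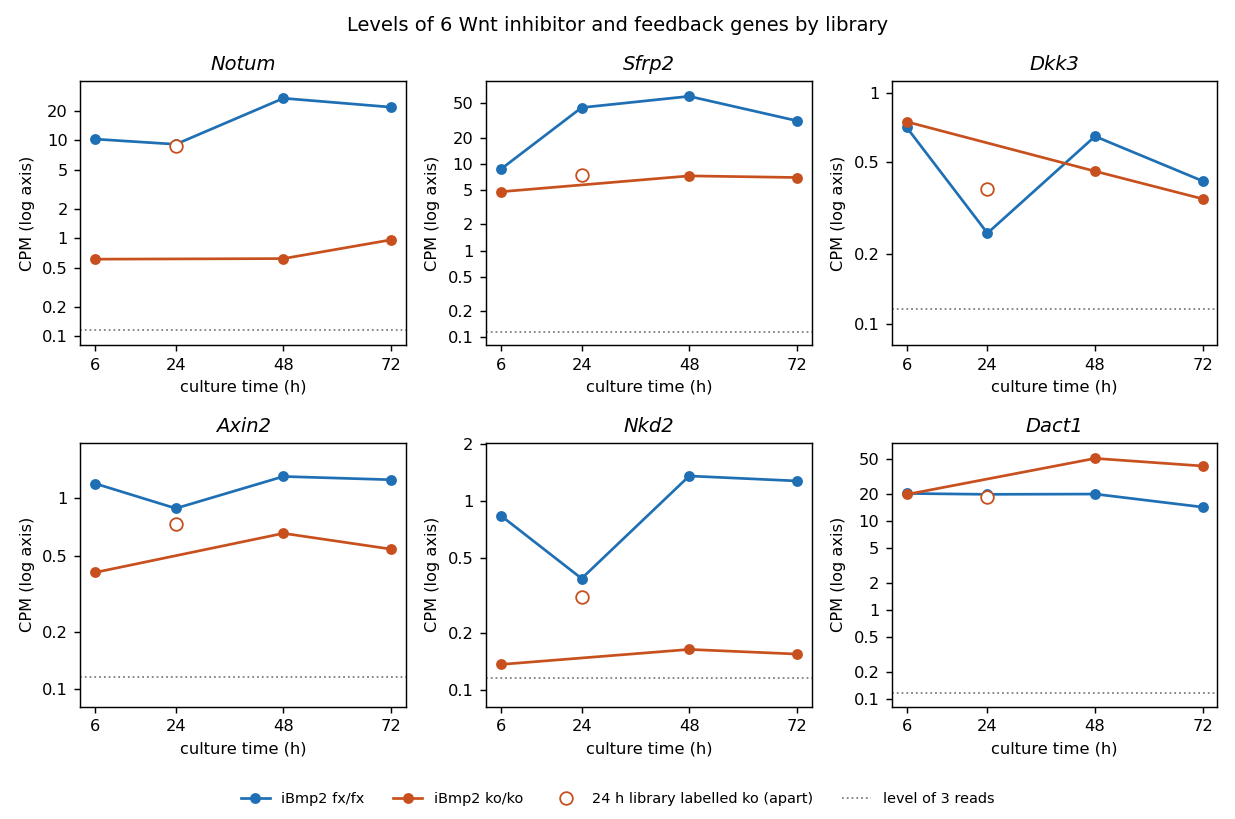
Level of each gene in CPM (log axis) against culture time in hours, 1 point per library, with the 24 h library labelled knock-out as an open circle and the level of 3 reads as a dotted line. Notum, Sfrp2, Axin2 and Nkd2 lie lower in the knock-out cells at 6, 48 and 72 h, Dact1 lies higher at 48 and 72 h, and at 24 h the circle meets the floxed point for Notum and Dact1 but not for Sfrp2.

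Promoter windows of RefSeq (GRCm38.p6) were matched by symbol for 7 of the 10 genes, and not for Notum, Dkk3 and Sfrp1. Shown are the 250 bases upstream of the start of the 4 genes with a window whose genotype interval, given below, lay off 0 and the motifs of the factors that end the Wnt and BMP pathways were searched in them. They are on the plus strand at chr3:83766071-83766320 for Sfrp2, at chr11:108920099-108920348 for Axin2 and at chr12:71309634-71309883 for Dact1, and on the minus strand at chr13:73847632-73847881 for Nkd2. Capitals mark matches, on either strand, to the TCF/LEF core letters CTTTGA and CTTTGT, to the Smad-binding letters GTCTG and to GGCGCC, a GC-rich sequence that BMP-activated Smads bind. No motif shares a match with another here.
Sfrp2: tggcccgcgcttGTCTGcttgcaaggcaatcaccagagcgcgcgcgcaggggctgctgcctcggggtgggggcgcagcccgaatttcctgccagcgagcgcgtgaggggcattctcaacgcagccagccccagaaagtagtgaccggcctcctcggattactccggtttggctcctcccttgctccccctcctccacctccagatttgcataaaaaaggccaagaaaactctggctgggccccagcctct
Axin2: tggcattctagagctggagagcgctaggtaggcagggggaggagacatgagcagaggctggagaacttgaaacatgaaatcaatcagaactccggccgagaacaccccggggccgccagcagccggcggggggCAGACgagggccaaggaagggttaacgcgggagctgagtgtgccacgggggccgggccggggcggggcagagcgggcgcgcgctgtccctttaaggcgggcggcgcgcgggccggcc
Nkd2: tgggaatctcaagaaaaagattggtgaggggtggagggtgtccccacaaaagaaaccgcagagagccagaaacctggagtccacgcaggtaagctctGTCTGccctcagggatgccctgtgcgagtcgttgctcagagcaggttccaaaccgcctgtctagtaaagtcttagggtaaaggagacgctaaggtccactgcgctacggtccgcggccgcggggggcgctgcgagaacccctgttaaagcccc
Dact1: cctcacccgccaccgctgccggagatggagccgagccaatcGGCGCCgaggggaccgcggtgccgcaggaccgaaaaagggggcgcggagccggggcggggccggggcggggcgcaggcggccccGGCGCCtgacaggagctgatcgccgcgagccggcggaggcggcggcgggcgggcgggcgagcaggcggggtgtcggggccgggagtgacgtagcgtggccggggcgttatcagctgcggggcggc
The Sfrp2 window held GTCTG at 238 bases before the start, the Nkd2 window held it at 153 bases and the Axin2 window held its complement CAGAC at 117 bases. The Dact1 window held GGCGCC at 209 and at 125 bases before the start. Neither TCF/LEF word was found in these 4 windows, which says only that the letters are absent there. Of 32851 windows of the same length, 42.2% held GTCTG, 9.59% GGCGCC, 13.8% CTTTGA and 16.5% CTTTGT, so that GTCTG is a common match and GGCGCC a less common one. The GC content of the windows was 63.6% for Sfrp2, 69.2% for Axin2, 58.4% for Nkd2 and 80.4% for Dact1. A match is a description and not a binding site.

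The comparison of genotypes asks how the expression of each gene differs between the floxed and the knock-out line. Bmp2 itself had 0 reads in each of the 6 libraries compared, floxed and knock-out alike, so no difference in its transcript was seen between them. A gene was called where edgeR's quasi-likelihood test gave an adjusted p (Benjamini-Hochberg) of 0.05 or less and the log2 fold change was 1 or more in size. Of the 6 genes, 2 were called lower in the knock-out cells, Notum and Nkd2, and 0 higher. Nkd2 passed the filter only through the floxed libraries, where it is high, and is not tested where 10 reads are asked of every library. Over all 13121 genes tested, 1.29% were called lower, 0.899% higher and 2.19% in either direction. At the looser limit named in the study's methods, an unadjusted p under 0.05 and a fold change above 1 on the log2 scale, Notum, Nkd2, Sfrp2 and Axin2 were lower and Dact1 was higher, where 4.04% of all genes were lower and 3.31% higher. DESeq2 called 3 of the 6 lower, where it called 2.95% of all genes lower and 2.07% higher. Limma called 2 lower on log2 CPM (1.34% of all genes lower, 0.831% higher) and 2 on log2 RPKM (1.28% lower, 0.828% higher), and 0 of the 6 were called higher by either tool. The 3 floxed libraries did not overlap the 3 knock-out libraries for Notum, Sfrp2, Axin2 and Nkd2, which held for 19.3% of all genes. The median log2 fold change was -1.80 over the 6 genes and -1.21 over the 5 without Nkd2, against 0.03 over all genes. It was 0.31 over 6 other extracellular inhibitors and modulators of Wnt and -0.14 over 12 other intracellular regulators. The genes were chosen with earlier results of these data known, so these shares and medians are descriptions and not a blind comparison with all genes.

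**Figure D2:**
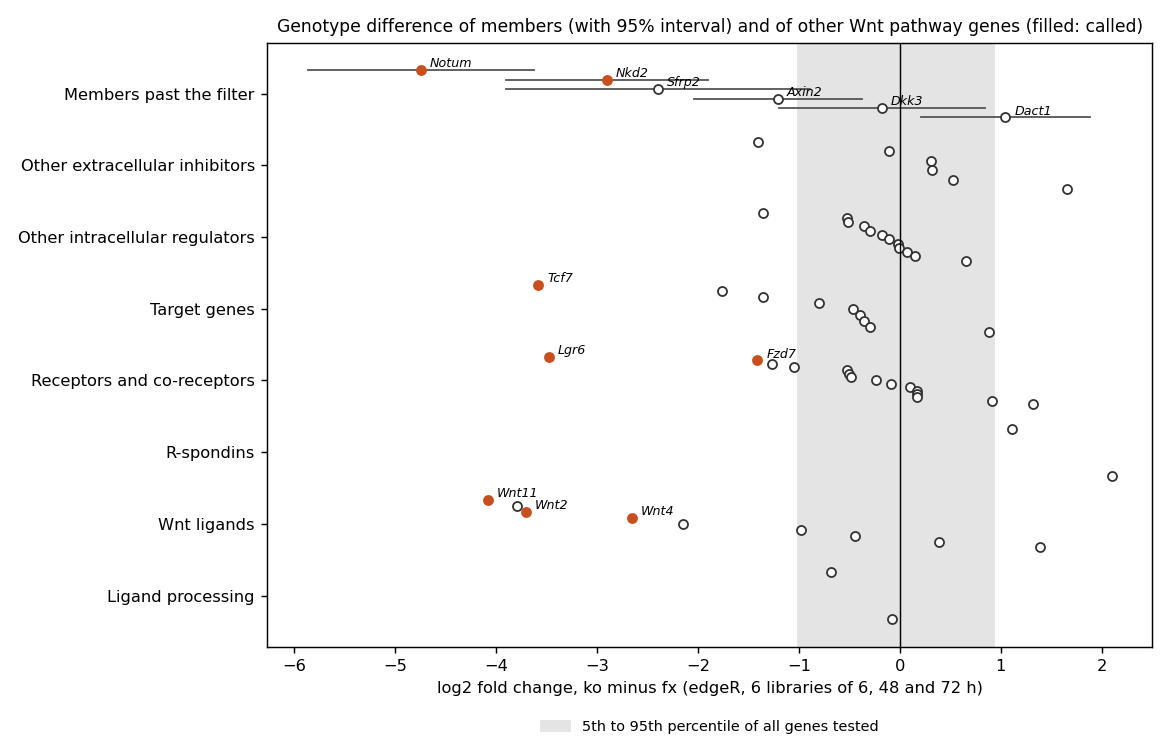
Log2 fold change of knock-out against floxed cells over the 6 libraries of 6, 48 and 72 h, with 95% intervals for the 6 genes described here and points alone for other Wnt pathway genes, by group. Filled points passed the adjusted limit, and the grey band spans the 5th to 95th percentile of all genes tested; Notum at -4.75 lies farthest to the left.

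Notum is a secreted carboxylesterase that cleaves the palmitoleate group from Wnt proteins and so inactivates them. It lies on chromosome 11 of mm9 (120515102 to 120522489, minus strand). In the floxed cells its level was 10.3, 9.14, 27.0 and 21.9 CPM after 6, 24, 48 and 72 h. In the knock-out cells it was 0.613, 0.621 and 0.966 CPM after 6, 48 and 72 h, from 18, 19 and 25 reads. Every floxed library was far above all 3 of these. Over the 6 libraries the means were 19.7 ± 8.54 and 0.733 ± 0.201 CPM (SD, n = 3 each), 26.9-fold lower in the knock-out cells, and Notum fell by 4.75 on the log2 scale (SE 0.48, 95% interval -5.87 to -3.63, edgeR adjusted p = 0.00765). The call was lost without the floxed library of 48 h (adjusted p = 0.0560) and without the knock-out library of 48 h (adjusted p = 0.0752), with log2 fold changes of -4.47 and -4.64.

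The 24 h library labelled knock-out held 228 Notum reads, or 8.79 CPM, at the level of the floxed library of that time and above the other 3 knock-out libraries. The floxed level was 1.04-fold that of this library at 24 h (95% exact interval 0.868 to 1.25, counting error only), against 16.9-fold at 6 h, 43.5-fold at 48 h and 22.7-fold at 72 h. With all 8 libraries in the genotype test, Notum had a log2 fold change of -2.68 and an adjusted p of 0.483.

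Sfrp2 encodes a secreted Frizzled-related protein, whose cysteine-rich domain resembles the ligand-binding part of Frizzled and binds Wnt proteins. It lies on chromosome 3 of mm9 (83570243 to 83578238, plus strand). In the floxed cells the level was 8.68, 44.5, 60.1 and 31.4 CPM after 6, 24, 48 and 72 h. In the knock-out cells it was 4.76, 7.26 and 6.95 CPM after 6, 48 and 72 h, and it was 7.52 CPM in the 24 h library labelled knock-out. The values of these 4 libraries lay close together and below the lowest floxed value, that of 6 h. The means over the 6 libraries were 33.4 ± 25.7 and 6.33 ± 1.36 CPM, 5.28-fold apart, with a log2 fold change of -2.40 (SE 0.64, 95% interval -3.91 to -0.89), and edgeR's adjusted p of 0.142 missed the limit. With culture time as a block, which compares the libraries of the same time, Sfrp2 was called lower, at -2.07 (SE 0.37, adjusted p = 0.00777), and it was also called without the floxed library of 6 h (-2.87, adjusted p = 0.0415). Without the floxed library of 48 h the log2 fold change of Sfrp2 was -1.69 and without the other 4 libraries, each in turn, it was -2.52 to -2.20, none of them called (edgeR adjusted p of 0.150 to 0.446 over these 5). With the block, 4.67% of all genes were called lower and 3.78% higher. Notum, Nkd2, Sfrp2 and Axin2 were the 4 called here, of which Nkd2 passed the filter only through the floxed libraries.

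The ratio of floxed to knock-out for Sfrp2 was 1.82 at 6 h (95% exact interval 1.48 to 2.25), 5.92 at 24 h (5.09 to 6.92), 8.28 at 48 h (7.20 to 9.55) and 4.51 at 72 h (3.85 to 5.32). The libraries of 24 h thus differed beyond counting error for Sfrp2, in the same direction as those of the other times, while they did not for Notum. These intervals hold no spread between samples.

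The other secreted inhibitors were scarce. Dkk3, a divergent member of the Dickkopf family (mm9 chromosome 7, 119259533 to 119302571), had 22, 7, 21 and 13 reads in the floxed cells at 6, 24, 48 and 72 h and 22, 14 and 9 in the knock-out cells at 6, 48 and 72 h, with 10 in the 24 h library labelled knock-out. The values of the genotypes overlapped, with a log2 fold change of -0.18 (95% interval -1.20 to 0.84, edgeR adjusted p = 0.906), so that a change of 2-fold in the downward direction was within the interval. Dkk2, which binds LRP co-receptors, had 0 to 5 reads in the floxed cells and 1 to 11 in the knock-out cells, the highest being 0.425 CPM at 72 h. Sfrp1, a relative of Sfrp2, had 0 to 5 reads per library. Wif1, a secreted protein that binds Wnt ligands directly, had 0 to 2 reads per library. None of Dkk2, Sfrp1 and Wif1 passed the filter, and a difference between genotypes was not detectable for them at this depth.

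Nkd2, which binds Dishevelled and restrains Wnt signalling inside the cell (mm9 chromosome 13, 73955982 to 73985079, minus strand), was the second gene called. Its level in the floxed cells was 0.836, 0.388, 1.36 and 1.28 CPM after 6, 24, 48 and 72 h, and in the knock-out cells 0.136, 0.163 and 0.154 CPM after 6, 48 and 72 h. The knock-out values rest on 4, 5 and 4 reads, close to the limit of detection, and all lay below the floxed values. Nkd2 thus passed the filter only through the floxed libraries, where it is high, which favours a call in the lower direction. The means were 1.16 ± 0.281 and 0.151 ± 0.0139 CPM, 7.64-fold apart, and Nkd2 fell by 2.90 on the log2 scale (SE 0.43, 95% interval -3.90 to -1.90, edgeR adjusted p = 0.0214). The size of this change depends on the offset for low values: limma gave -1.33 on log2(CPM + 0.5) and -1.37 on log2(RPKM + 0.1), both called. The call was lost when either library of 6 h, either library of 48 h or the floxed library of 72 h was left out, with adjusted p of 0.0531 to 0.133 and log2 fold changes of -3.12 to -2.78. At 24 h the library labelled knock-out had 8 reads (0.308 CPM) and the floxed library 11, a ratio of 1.26 (95% exact interval 0.462 to 3.61). The floxed level was the lowest of that genotype at 24 h. Its paralogue Nkd1 had 0 or 1 read in every library and did not pass the filter.

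Axin2, a scaffold of the complex that degrades beta-catenin and a widely used readout of Wnt signalling (mm9 chromosome 11, 108781663 to 108812097, plus strand), was low throughout. It had 37, 25, 42 and 39 reads in the floxed cells at 6, 24, 48 and 72 h, 12, 20 and 14 in the knock-out cells at 6, 48 and 72 h and 19 in the 24 h library labelled knock-out. The knock-out levels, 0.408 to 0.654 CPM, lay below all the floxed levels, 0.883 to 1.30 CPM, and the 24 h library labelled knock-out lay between them at 0.732 CPM. Over the 6 libraries the means were 1.24 ± 0.0529 and 0.534 ± 0.123 CPM, 2.33-fold apart, with a log2 fold change of -1.21 (SE 0.36, 95% interval -2.04 to -0.37), and edgeR's adjusted p of 0.184 missed the limit. With the offsets of limma the change was -0.76 on log2(CPM + 0.5) and -0.73 on log2(RPKM + 0.1). With culture time as a block Axin2 was called lower, at -1.22 (SE 0.30, adjusted p = 0.0264).

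Dact1, a Dishevelled-binding protein that modulates Wnt signalling (mm9 chromosome 12, 72410871 to 72421094, plus strand), was the only gene of the 6 with a positive fold change. In the floxed cells its level was 20.5, 20.1, 20.2 and 14.4 CPM after 6, 24, 48 and 72 h. In the knock-out cells it was 20.01, 50.9 and 41.8 CPM after 6, 48 and 72 h, so that the early level of that genotype rests on the 6 h library, and it was 18.7 CPM in the 24 h library labelled knock-out. The libraries of 6 h and those of 24 h did not differ beyond counting error, and at 48 and 72 h the knock-out library stood 2.52-fold (95% exact interval 2.30 to 2.77) and 2.90-fold (2.60 to 3.25) above the floxed one, intervals that hold no spread between samples. The log2 fold change over the 6 libraries was 1.05 (SE 0.36, 95% interval 0.21 to 1.89), with means of 18.4 ± 3.44 and 37.6 ± 15.9 CPM, and edgeR's adjusted p of 0.251 missed the limit. With the block the adjusted p was 0.0484, and the log2 fold change of 0.96 lay below the fold limit.

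**Figure D3:**
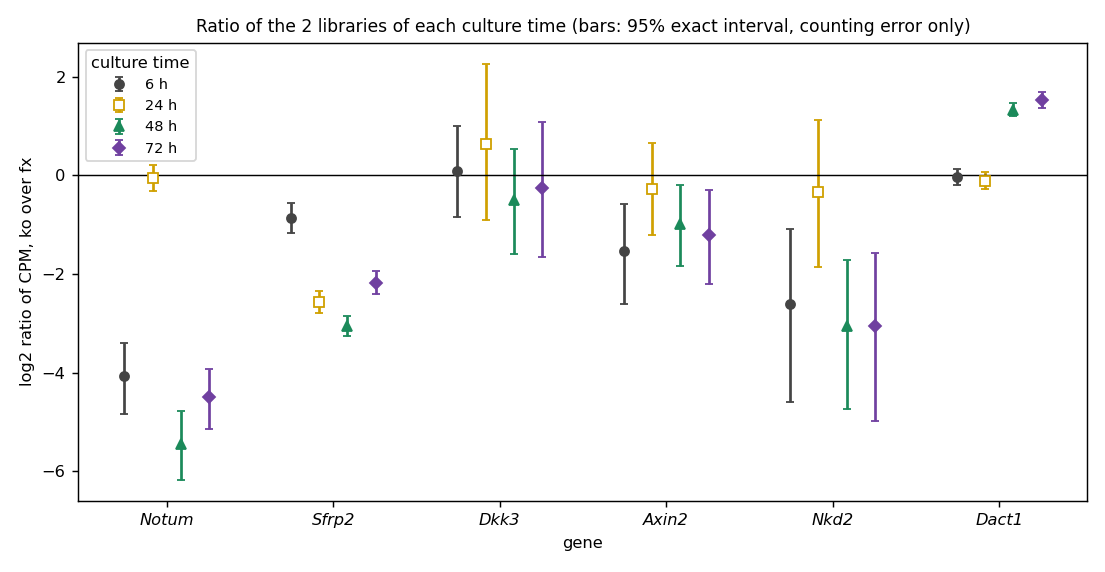
Log2 ratio of the knock-out to the floxed library of each culture time, with 95% exact intervals for counting error alone; values below 0 are lower in knock-out. The 24 h squares of Notum, Axin2 and Nkd2 have intervals that include 0, the square of Sfrp2 lies with its other times, and the Dact1 ratio departs from 0 at 48 and 72 h only.

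Culture time was tested over both genotypes as a slope on log2 of the hours. By edgeR's test, 0 of the 6 genes and 0 of all genes passed the adjusted limit. Without the knock-out library of 48 h, 0 of the 6 genes still passed it, while 133 of all genes passed with a rising and 63 with a falling slope. The slope per doubling of time was 0.28 on the log2 scale for Notum (SE 0.10, unadjusted p = 0.0291, edgeR adjusted p = 0.210) and 0.42 for Sfrp2 (SE 0.17, unadjusted p = 0.0463, edgeR adjusted p = 0.232). These were the 2 of the 6 genes with a positive slope at an unadjusted p under 0.05, and 0 had a negative one, where 10.9% of all genes had a positive and 10.2% a negative slope. Without the floxed library of 6 h the slopes were 0.14 for Notum and 0.15 for Sfrp2, with unadjusted p of 0.356 and 0.343 in edgeR's test, and without the knock-out library of 6 h the Sfrp2 slope was 0.70. The unadjusted p of Notum also passed 0.05 without the floxed library of 48 h (0.0556) or of 72 h (0.0525). Over 6, 48 and 72 h the highest floxed level was 6.92 times the lowest for Sfrp2, 2.61 times for Notum, 1.704 times for Dkk3, 1.62 times for Nkd2, 1.424 times for Dact1 and 1.09 times for Axin2. In the knock-out cells these ratios were 1.52 for Sfrp2, 1.58 for Notum, 2.15 for Dkk3, 1.20 for Nkd2, 2.55 for Dact1 and 1.60 for Axin2. With the floxed library of 24 h, the floxed ratio became 3.49 for Nkd2, 2.95 for Notum, 2.86 for Dkk3 and 1.47 for Axin2. For Dact1 the slope was steeper in the knock-out cells by 0.44 (SE 0.15, 95% interval 0.05 to 0.83, edgeR unadjusted p = 0.0332, adjusted p = 1), a difference of slopes that 0.48% of all genes showed at that unadjusted limit. For Sfrp2 it was smaller in the knock-out cells, with a difference of -0.53 (SE 0.26, unadjusted p = 0.0988), and for the other 4 genes the unadjusted p was 0.296 or more. The direction of both rests on 1 library of 6 h: the Dact1 difference was -0.22 without the knock-out library of 6 h (edgeR unadjusted p = 0.757) and 1.11 without the floxed one (0.263), and the Sfrp2 difference was 1.70 without the floxed library of 6 h (0.104).

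Several of these genes share exonic bases with a long non-coding RNA on the opposite strand, and the strand setting of the counting is not given in the sources used here, so the reads of each pair cannot be told apart. At Notum, 4732444A12Rik (chromosome 11, 120520471 to 120523129, plus strand) shares 708 bases, or 29.4% of the Notum exons, and Gm11768 (120508984 to 120518375, plus strand) shares 210. The reads of 4732444A12Rik were 24.1 to 48.0% of those of Notum in each of the 8 libraries, and summed to 588 in the 3 floxed libraries and 28 in the 3 knock-out libraries. In the 24 h library labelled knock-out it had 55 reads, against 84 in the floxed library of that time. Gm16790 at Sfrp2 (chromosome 3, 83577775 to 83593878, minus strand, 347 shared bases) had 18.1 to 26.4% of the Sfrp2 reads, and 641 against 117 reads by genotype. At Dact1, 4930474H06Rik (chromosome 12, 72418608 to 72422647, minus strand) shares 1313 bases, or 34.9% of the Dact1 exons, and had 30.4 to 37.9% of the Dact1 reads, with 633 against 1124 by genotype. Each of these RNAs therefore followed its partner across genotype and time, as the plot of their reads shows. Gm11670, which shares 209 bases with Axin2, had 5 reads against 4. No opposite-strand gene shares exonic bases with Nkd2 or Dkk3.

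**Figure D4:**
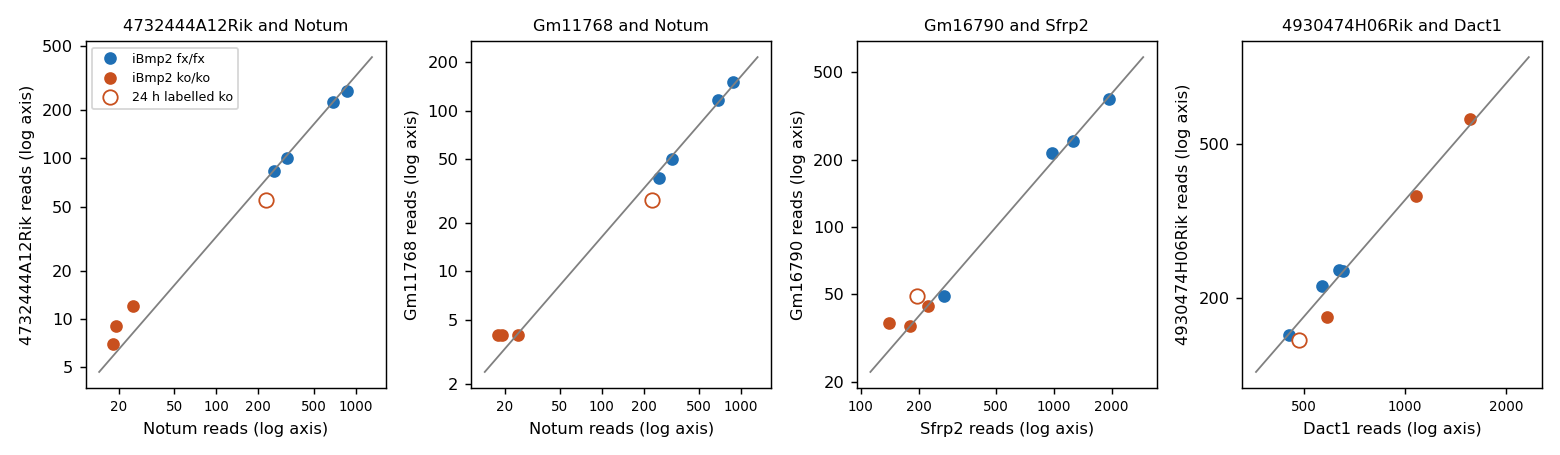
Reads of each opposite-strand long non-coding RNA against reads of its partner in the same library (both log axes), 1 point per library, with the open circle for the 24 h library labelled knock-out and a grey line at the median percentage. Points follow the line from 18 to 875 Notum reads, but not exactly at the low end. For 4732444A12Rik the knock-out points of 6, 48 and 72 h lie above it, at 38.9, 47.4 and 48.0% of the Notum reads. The open circle lies below it, at 24.1%.

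The likeness of profiles was measured as the root mean square difference of log2(CPM + 0.5), centred on each gene's mean, over all 8 libraries, among the 10547 or 10548 genes with a mean of at least 5 CPM, the gene itself left out. The gene nearest to Notum was Lhx1, a LIM homeobox transcription factor, at 0.446. Lhx1 stood at 10.6, 8.90, 15.3 and 12.9 CPM in the floxed cells at 6, 24, 48 and 72 h, at 0.272, 0.163 and 0.116 CPM in the knock-out cells at 6, 48 and 72 h, and at 9.21 CPM in the 24 h library labelled knock-out, which for Lhx1 as for Notum lay near the floxed libraries. Nearest to Sfrp2 was Masp1, a protease of the lectin pathway of complement, at 0.441, with 16.0, 46.7, 60.8 and 37.5 CPM in the floxed cells, 3.40, 8.30 and 12.5 CPM in the knock-out cells and 14.1 CPM in the 24 h library labelled knock-out. Nearest to Dact1 was Chml at 0.278 and to Nkd2 was Ldb3 at 0.246. For Axin2 the nearest were Tbx3 at 0.119, Tmem38b at 0.133 and Micall1 at 0.134, and for Dkk3 it was Tbcc at 0.0971, but at levels near 1 CPM the offset of 0.5 flattens a profile. Among the 6 genes themselves the closest pair was Axin2 and Nkd2 at 0.300 and the farthest was Notum and Dact1 at 2.25. The offset flattens the profiles of Axin2 and Nkd2 too, whose log2 fold changes in edgeR's fit were -1.21 and -2.90, and it bears on the low knock-out levels of Lhx1.

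Other genes of the pathway gave the setting. Of 80 such genes in the table, 53 passed the filter, and edgeR's test called 6 lower in the knock-out cells and 0 higher, with 12 lower and 4 higher at the unadjusted limit and 10 lower and 3 higher by DESeq2. Over all genes these shares were 1.29% lower and 0.899% higher for edgeR's test, 4.04% and 3.31% at the unadjusted limit and 2.95% and 2.07% by DESeq2. The median log2 fold change of the 53 was -0.30, against 0.03 over all genes. Of 9 Wnt ligands tested, Wnt11 (-4.08, SE 0.30, edgeR adjusted p = 0.00425), Wnt2 (-3.71, SE 0.64, adjusted p = 0.0339) and Wnt4 (-2.66, SE 0.40, adjusted p = 0.0227) fell. The ligand Wnt5a lay the other way, with means of 9.80 and 25.5 CPM in floxed and knock-out and a log2 fold change of 1.38 (SE 0.37), higher at the unadjusted limit (edgeR adjusted p = 0.137). Wnt2, like Nkd2, passed the filter only through the floxed libraries and is not tested where 10 reads are asked of every library. The same holds for Wnt1, with 42, 46 and 74 reads in floxed against 3, 0 and 7 in knock-out, and for Wnt6, with 58, 70 and 27 against 19, 12 and 1, and these 3 ligands are among the 12 lower at the unadjusted limit. Of 15 receptors and co-receptors, the R-spondin receptor Lgr6 (-3.48, SE 0.57, adjusted p = 0.0282) and the Wnt receptor Fzd7 (-1.42, SE 0.21, adjusted p = 0.0214) fell in edgeR's test. At the unadjusted limit the Wnt receptors Fzd4 (-1.27, edgeR adjusted p = 0.117) and Fzd6 (-1.05, adjusted p = 0.113) were lower as well. Fzd3, another Wnt receptor, was higher at that limit, at 1.32 (edgeR adjusted p = 0.0893). Of 9 other target genes, 2 were lower and 0 higher at the unadjusted limit. Ccnd1 lay the other way, at 0.88, but outside that limit (edgeR adjusted p = 0.651). The lower ones were Lef1, at -1.77 (edgeR adjusted p = 0.0508), and Tcf7, a TCF/LEF factor, which fell by 3.58 (SE 0.42, edgeR adjusted p = 0.0120). These calls were lost in part when 1 library was left out: 1 of the genes was still called without the floxed or the knock-out library of 48 h, 2 without the floxed library of 6 h and 3 without the knock-out library of 6 h, while Lgr6 and Wnt2 were not called without the floxed library of 72 h. Among 6 other extracellular inhibitors and modulators and 12 other intracellular regulators tested, 0 passed the adjusted limit in either direction, and at the unadjusted limit Bambi, a membrane pseudoreceptor of the BMP pathway, was higher, at 1.65, and Igfbp4, an IGF-binding protein that can restrain Wnt, was lower, at -1.41. The R-spondins, secreted proteins that strengthen Wnt signalling, had values of 2.10 for Rspo2 and 1.11 for Rspo3, and neither passed the adjusted limit. With culture time as a block these calls changed: Wnt5a (1.37, edgeR adjusted p = 0.000794), Fzd3 (1.31, adjusted p = 0.00595), Bambi (1.61, adjusted p = 0.00792), Rspo2 (2.19, adjusted p = 0.00103) and Rspo3 (1.10, adjusted p = 0.0139) were called higher and Igfbp4 (-1.48, adjusted p = 0.00182) lower. In all, the block gave 12 lower, Wnt1, Wnt2 and Wnt6 among them, and 5 higher of the 53, where it called 4.67% of all genes lower and 3.78% higher.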

How the data were processed

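Total RNA of 8 libraries, 1 per genotype and culture time, was sequenced as 50-base single-end reads per the labels, while the study's methods name paired reads. The first culture time is 6 h in the labels and 8 h in the design text of the series. Per the submitters' processing notes and methods, the authors used CASAVA 1.8.2, aligned reads to mm9 with TopHat2 2.0.8b and counted them with HTSeq. The authors deposited whole-number counts per gene symbol and per long non-coding RNA symbol, without normalization. The annotation and strand setting are not given in the sources used here. The counters that HTSeq appends, 52.0 to 59.0% of all entries, name no gene and were left out of library sizes, and genes with near-identical copies can be undercounted.

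Counts were tested with edgeR 4.0.16 (R 4.3.3, TMM, filterByExpr) by the quasi-likelihood test over all genes, with 3 libraries per genotype. The filter asked for the CPM equivalent of at least 10 reads in at least 3 libraries, whatever their genotype, and for at least 15 reads in total. The p values were adjusted by the Benjamini-Hochberg method. The standard error was the log2 fold change divided by the root of F. RPKM used merged exons of GENCODE M1, to which 95.7% of the symbols matched. CPM ratios of 2 libraries had exact conditional 95% intervals, which like the limit of 3 reads cover counting error only, since reads carry no molecular identifiers. The deposited counts of the long non-coding RNAs were used only for those that share exonic bases with a described gene.

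The alternatives were all 8 libraries, 7 without the 24 h library labelled knock-out, culture time as a block, other size factors, DESeq2 1.42.0, limma 3.58.1 on log2(CPM + 0.5) and log2(RPKM + 0.1), other filters and limits, time in hours, and leaving out each library. The 2 libraries of each time departed from their genotype means alike (correlation across genes 0.734 at 6 h, 0.570 at 48 h and 0.865 at 72 h), so the numbers given to culture times pair the libraries. The 10 genes and the gene lists were chosen with earlier results of these data known. The text names the 10 genes, Bmp2, up to 4 called genes per list and direction, and the gene nearest in profile to each tested gene, with 3 for Axin2. Bambi, Ccnd1, Fzd3, Fzd4, Fzd6, Igfbp4, Lef1, Rspo2, Rspo3, Wnt1, Wnt5a, Wnt6 and the opposite-strand RNAs were named after their values were seen. Nothing in the labels says that the libraries came from separate cultures, so p values measure the spread between these libraries. The tests were tried on simulated counts. Figures used matplotlib 3.10.9 and pandas 2.3.3 under Python 3.11.15.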

Additional observations from a re-analysis of the deposited data

Results flagged for a closer look

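Each of the 6 tested genes was checked in the 4 libraries of each genotype for a library far from the other 3, which gave 12 groups, and 3 of them held such a library. The 12 groups share the same 8 libraries, and the 4 libraries of a genotype differ in culture time, so this count cannot be set against a chance rate. The 24 h library labelled knock-out was already known to stand apart. Among the knock-out libraries the 24 h library was far above the rest for Notum, at 8.79 CPM. It was also the one apart for Nkd2, at 0.308 CPM, from 8 reads against 4, 5 and 4, counts close to the limit of detection. Among the floxed libraries the 72 h library was below the rest for Dact1, at 14.4 CPM. The table of long non-coding RNAs, which no comparison used, held reads that followed the described genes: the median over the 8 libraries was 35.8% of the Dact1 reads for 4930474H06Rik, 32.5% of the Notum reads for 4732444A12Rik, 16.5% of the Notum reads for Gm11768 and 19.9% of the Sfrp2 reads for Gm16790. Whether these reads come from the opposite strand was not tested.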

How the results depend on the processing

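Over 19 other settings of the genotype test, the sign of Notum, Sfrp2, Axin2, Nkd2 and Dact1 did not change wherever the gene was tested, and Dkk3 kept its sign in 17 of 18. The number of genes called lower, 2 as reported, was 0 with all 8 libraries and 0 with the replicate block over 8 libraries, 4 with the replicate block over 6 libraries, 1 with at least 10 reads in every library, a filter that leaves Nkd2 untested, and 4 at the study's unadjusted limit, which also gave 1 higher. Leaving out 1 library gave 0 to 2 lower and 0 higher. DESeq2 called Sfrp2 as well (-2.41, adjusted p = 0.00245). The other Wnt pathway genes, 6 lower and 0 higher, became 0 lower with all 8 libraries and with the block over them, 12 lower and 5 higher with the block over 6, 10 and 3 by DESeq2 and 12 and 4 at the unadjusted limit, 2 higher without the 24 h library labelled knock-out, and 1 to 8 lower with 0 higher without 1 library. Over all genes, 118 higher and 169 lower became 0 and 0 with all 8 libraries, 496 and 613 with the block, 8 and 25 with the block over 8, 272 and 387 by DESeq2, 53 and 91 with at least 10 reads in every library, 434 and 530 at the unadjusted limit, and 14 and 9 in both directions together without the floxed or the knock-out library of 48 h. The cause of these moves was not tested. Slopes on time, and their difference between genotypes, gave 0 calls among the 6 genes in all settings run, while slopes over all genes, with 0 calls as reported, gave 133 rising and 63 falling without the knock-out library of 48 h. Depth limits Dkk2, Sfrp1, Wif1 and Nkd1, and knock-out levels of Nkd2.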
